A study of Mus musculus with 29 samples.

Results

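The genes described here build the cilium and its axoneme. They are the 37 of 22367 protein-coding genes of the mouse mm9 annotation whose symbol is Ift or Bbs followed by a number, or begins with Dnah or Dnaic, and they were taken by symbol alone. The measurements are genome-wide binding maps of the transcription factors Atoh1, Pou4f3 and Gfi1, made by chromatin immunoprecipitation and sequencing (ChIP-seq) in embryoid bodies (EBs), aggregates of differentiating mouse embryonic stem cells. The question the design addresses is where Atoh1 and its partners bind when they are expressed alone or in combination, since the study uses the combination of 3 to direct such cells towards the fate of hair cells of the inner ear. There were 6 lines from the parental line A2loxCre, each with a doxycycline-inducible cassette that ends in a Venus reporter: iAtoh1 (Atoh1), iPou4f3 (Pou4f3), iG+A (Gfi1 and Atoh1), iG+P (Gfi1 and Pou4f3), iP+A (Pou4f3 and Atoh1) and iGPA (Gfi1, Pou4f3 and Atoh1). All EBs, inputs included, received 2 µg/ml doxycycline from day 4 and were taken at day 6, after 48 h, so no list comes from cells without an induced factor. The Atoh1 protein carried a FLAG tag and the Pou4f3 protein a MYC tag, and ChIP used these tags, while untagged Gfi1 was pulled down by an anti-Gfi1 antibody. The 29 libraries were 17 ChIP and 12 input libraries, with 2 libraries per line and factor, described as different clones of the line, except for Gfi1 in iGPA, which had 1.

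The replicates of each line and factor were merged before peaks were called against merged inputs, which gives 9 peak lists with 1 value per gene each and no spread between replicates. No test between lists was therefore possible, and the intervals below are exact Clopper-Pearson 95% intervals, which cover counting error only. A summit is the base of highest enrichment in a peak, and the kept summits are those of the authors' summit lists, 15568 to 32632 in the 8 Atoh1 and Pou4f3 lists and 3012 in the Gfi1 list. A gene was counted as holding a summit when the summit lay in its body or within 10 kb of it. Fold is the enrichment at the summit over the local background as the peak caller gave it. Summits that lie close together were joined into sites, and the distance from a site to a start is that of its highest summit. For distances, and for counts within 1 kb of a start, any annotated transcript start of a gene was used. The nearest start can thus lie inside the gene, far from its first base. The lists hold no expression, so the cells could not be checked against their marker genes. Lists from the same line share its merged input, which holds for the Atoh1 and Pou4f3 lists of iP+A and for the 3 lists of iGPA.

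Cilia grow by intraflagellar transport (IFT), in which trains of IFT-B and IFT-A complexes are carried by kinesin towards the tip and by dynein back to the base. The BBSome rides on these trains and moves membrane proteins, and chaperonin-like BBS proteins help to assemble it. Motile cilia also carry axonemal dyneins, whose heavy chains form the outer and inner arms that bend the axoneme, with intermediate chains at the base of the outer arm. The hair bundle of a hair cell forms beside a single true cilium, the kinocilium. The annotation spells the heavy chains with the older symbol Dnahc. By role the members were 2 IFT-A genes, 10 IFT-B genes, 6 BBSome genes, 2 chaperonin-like genes, 5 outer arm heavy chains, 9 inner arm heavy chains, 1 other heavy chain (Dnahc14) and 2 intermediate chains. Further subunits of these complexes carry other symbols and are not members, so the role names below cover members only.

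The sequences under the sites that the values below turn on are shown first, from the NCBIM37 (mm9) genome, 5′ to 3′ on the plus strand. They cover 200 bases around the summit, less any annotated untranslated exon sequence, and the Bbs2 site, which lies in such an exon of its neighbour Ogfod1, is cut to 30 bases. Capitals mark, on either strand, the E-box recognised by bHLH factors such as Atoh1 (CAGCTG or CAGATG) in the first 3, and also the half-site of the X-box of RFX factors (GTTNCCATG) in the third. In the next 4 they mark 2 spellings of the Pou4f site, ATAATTAAT with at most 1 mismatch and ATGAATAAT, and in the last 2 the Gfi1 site (AATCACTGC or AATCACAGC). The spelling ATGAATAAT was added after these sequences had been seen.
Dnahc2 intron, Atoh1, chr11:69273466-69273665, plus strand: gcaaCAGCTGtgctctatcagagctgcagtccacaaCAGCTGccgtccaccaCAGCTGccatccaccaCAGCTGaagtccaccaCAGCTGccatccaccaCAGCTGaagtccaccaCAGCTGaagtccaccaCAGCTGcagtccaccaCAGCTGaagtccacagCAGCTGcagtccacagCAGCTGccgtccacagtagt
Dnaic1 intron, Atoh1, chr4:41575606-41575805, plus strand: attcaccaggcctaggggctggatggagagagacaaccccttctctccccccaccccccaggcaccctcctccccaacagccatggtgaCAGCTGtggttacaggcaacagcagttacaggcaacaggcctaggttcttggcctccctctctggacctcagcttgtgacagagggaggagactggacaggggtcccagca
Bbs2 flank, Atoh1, chr8:96590476-96590505, plus strand: gCAGCTGcgtttttcaGTTGCCATGtgccg
Dnaic1 start, Pou4f3, chr4:41516572-41516710, plus strand: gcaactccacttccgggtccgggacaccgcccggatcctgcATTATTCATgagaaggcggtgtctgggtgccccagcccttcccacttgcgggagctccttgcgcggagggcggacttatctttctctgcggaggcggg
Dnahc5 intron, Pou4f3, chr15:28249599-28249798, plus strand: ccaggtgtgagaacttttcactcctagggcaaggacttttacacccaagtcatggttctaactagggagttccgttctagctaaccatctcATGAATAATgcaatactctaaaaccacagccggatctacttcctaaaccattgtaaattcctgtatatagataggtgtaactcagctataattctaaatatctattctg
Dnaic2 intron, Pou4f3, chr11:114602903-114603102, plus strand: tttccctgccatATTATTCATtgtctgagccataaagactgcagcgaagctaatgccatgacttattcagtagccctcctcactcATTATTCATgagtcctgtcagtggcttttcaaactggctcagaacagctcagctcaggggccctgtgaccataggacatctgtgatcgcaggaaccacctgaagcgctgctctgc
Dnahc8 intron, Pou4f3, chr17:30919084-30919283, plus strand: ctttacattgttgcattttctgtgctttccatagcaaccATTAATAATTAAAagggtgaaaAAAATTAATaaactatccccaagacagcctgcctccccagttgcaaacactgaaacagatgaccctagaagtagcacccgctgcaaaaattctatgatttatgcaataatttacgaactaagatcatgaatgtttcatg
Ift140 start, Gfi1, chr17:25152955-25153035, plus strand: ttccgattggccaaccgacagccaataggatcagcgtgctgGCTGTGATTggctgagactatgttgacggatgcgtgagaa
Dnahc9 start, Gfi1, chr11:65981521-65981720, plus strand: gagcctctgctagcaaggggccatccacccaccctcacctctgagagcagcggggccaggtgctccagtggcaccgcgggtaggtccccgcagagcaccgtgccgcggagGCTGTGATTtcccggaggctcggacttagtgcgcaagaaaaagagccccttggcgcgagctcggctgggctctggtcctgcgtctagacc

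The Dnahc2 sequence is a tandem array of E-boxes. Within the 294 bases of chr11:69273422-69273715 there were 17 copies of CAGCTG, and 14 of the 16 spacings between neighbouring copies were 16 bases while the others were multiples of 16. The Dnaic1 sequence at the start of the gene and the Dnahc5 sequence share a run of 16 bases, tctcATGAATAATgca, on opposite strands. The Dnaic2 site shares 13 of these bases with each. None of these 3 windows of 250 bases held ATAATTAAT within 1 mismatch.

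Atoh1 and Pou4f3 summits were found at numbers of members whose intervals took in the number given by gene length, while Gfi1 summits were found at more members. For each member the 200 non-member protein-coding genes closest in length gave the expected share. In the Atoh1 lists, 11 of 37 members held a summit in iAtoh1, while 19 did in iG+A, 17 in the iP+A line and 24 in iGPA, against 15.1, 20.2, 19.4 and 24.2 expected from length. Over all protein-coding genes the shares in these lists were 30.1%, 42.6%, 38.7% and 50.7%. In the Pou4f3 lists, 26 members held a summit in iPou4f3, while 27 did in iG+P, 23 in the iP+A line and 21 in iGPA, against 24.0, 24.9, 18.6 and 20.4 expected, where the shares of all genes were 48.1%, 49.4%, 33.8% and 35.6%. The Gfi1 list held summits at 12 members, 32.4% of them (interval 18.01 to 49.8%), against 6.34 expected and 11.5% of all genes. This list comes from 1 library, and the study describes the enrichment that its Gfi1 antibody gave as relatively low. The interval of every Atoh1 and Pou4f3 list took in the share of genes of like length, and that of the Gfi1 list did not, with 17.1% expected. Both statements depend on the settings. With each summit given only to the nearest start, 7, 13 and 12 members held an Atoh1 summit in iAtoh1, iG+A and iP+A, against 15.3, 19.9 and 19.05 expected, and these 3 intervals lay below the expected share. The Gfi1 interval took in the expected share with the nearest start, at 11 members against 6.28, and at a −log10 p of 10 or more, at 7 members against 3.14.

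Among the members, Gfi1 summits lay at a larger share of the IFT and BBS genes than of the dynein genes. Of the 20 IFT and BBS members, 9 held a Gfi1 summit (45.0%, interval 23.1 to 68.5%), where genes of like length gave 14.2%. Of the 17 axonemal dynein members, 3 held one (17.6%, interval 3.799 to 43.4%), where genes of like length gave 20.6%. The difference between the classes was not tested. Among the Atoh1 and Pou4f3 lists, the IFT and BBS members stood lowest against their length in iAtoh1, with 3 of 20 (15.0%, interval 3.21 to 37.9%) against 35.4%, and highest in the Pou4f3 list of iP+A, with 12 of 20 (60.0%, interval 36.05 to 80.9%) against 42.3%. The most members, 15 of 20, were bound by Pou4f3 in iPou4f3 (75.0%, interval 50.9 to 91.3%), against 58.7%. These 3 intervals take in the share of genes of like length. With each summit given to the nearest start, the Atoh1 intervals of iAtoh1 and iP+A lay below that share. They then held 2 of these members against 6.98 expected and 3 against 8.935.

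**Figure D1:**
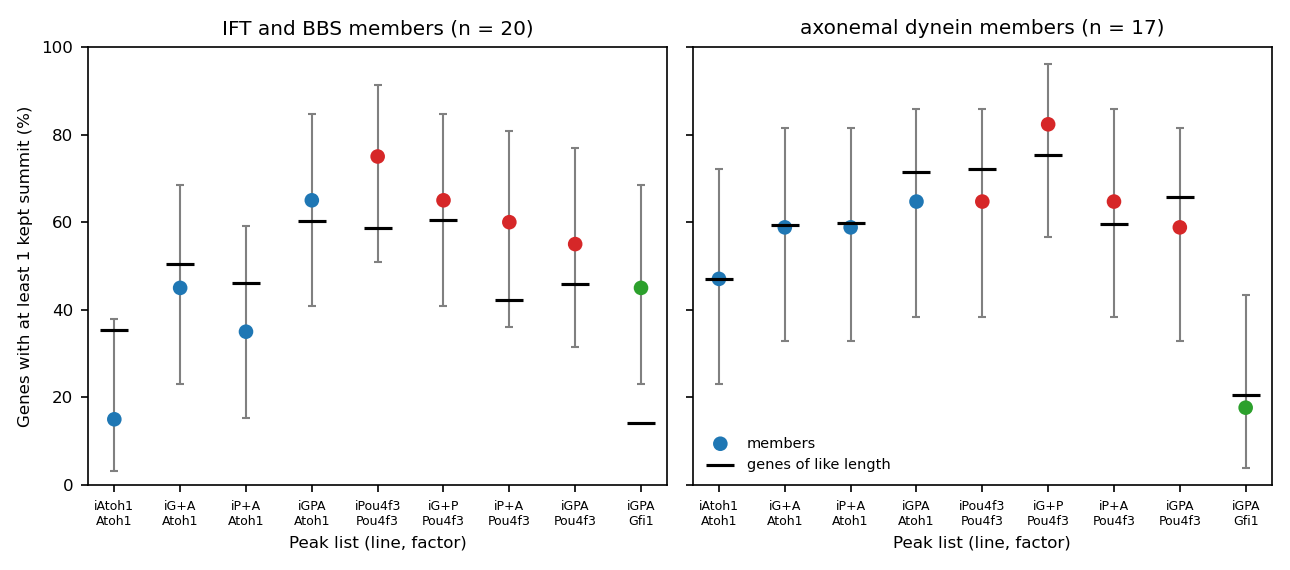
Share of members with at least 1 kept summit (%, y axis) in each of the 9 peak lists (x axis), for the 20 IFT and BBS members (left) and the 17 axonemal dynein members (right). Points are the members with exact 95% intervals, and bars are the genes of like length. The Gfi1 list of iGPA is the only one in which a bar, 14.2% at the IFT and BBS members, lies outside the interval of the point.

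Among the 10 IFT-B genes, Atoh1 summits were fewer than the mean of genes of like length gives. Pou4f3 summits were more, though hardly so in iG+P, and no interval was set on these counts. Counts are given in the order iAtoh1, iG+A, iP+A and iGPA for Atoh1, and iPou4f3, iG+P, iP+A and iGPA for Pou4f3. The IFT-B genes held 1, 4, 4 and 8 Atoh1 summits, against 6.97, 10.45, 8.805 and 14.2, and 16, 15, 11 and 12 Pou4f3 summits, against 10.9, 14.2, 7.245 and 7.72. The IFT-A gene Ift122 held 0, 1, 0 and 1 Atoh1 summits and 2, 3, 1 and 1 Pou4f3 summits. Ift140, the other IFT-A member, held 0, 3, 1 and 1 Atoh1 summits, 1, 1, 2 and 0 Pou4f3 summits and 1 Gfi1 summit. Neither of the 2 IFT-A members held an Atoh1 summit in iAtoh1, where 0.735 were expected from length. Of the IFT-B genes, 1 held an Atoh1 summit in iAtoh1 where 3.69 were expected from length, and 9 held a Pou4f3 summit in iPou4f3 where 5.85 were expected.

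Ift80, a peripheral IFT-B subunit, held no Atoh1 summit in any line and 3, 5, 3 and 3 Pou4f3 summits. Ift20, the small subunit that also works at the Golgi, held 1 Atoh1 summit, in iGPA, then 3, 3, 2 and 2 Pou4f3 summits and 3 Gfi1 summits. Its 14 summits over all lists compare with a mean of 4.82 for genes of its length, but all 6 of its sites have another gene within 10 kb, since Tnfaip1 and Tmem97 adjoin it. Ift46 held 0, 0, 1 and 3 Atoh1 summits, 3, 1, 1 and 0 Pou4f3 summits and 1 Gfi1 summit. Ift57 was the IFT gene bound in most lists, 8 of 9, with 0, 1, 1 and 1 Atoh1 summits, 2, 1, 2 and 2 Pou4f3 summits and 1 Gfi1 summit. Ift74, which forms a core pair with Ift81, held 1 Atoh1 summit, in iG+A, then 1, 2, 1 and 3 Pou4f3 summits and 1 Gfi1 summit. Ift88, the subunit lost in a classic mouse model of polycystic kidney disease, was the 1 IFT-B member with an Atoh1 summit in all 4 lines. All 7 of its summits fall in 1 site beyond the end of the gene, 45922 bases from the nearest of its starts. That site lies 258 bases from the start of the neighbour Il17d. Ift172 held 2 Atoh1 summits in iGPA and 1, 0, 1 and 1 Pou4f3 summits. Ift52 and Ift81 each held summits in 3 lists, and Ift27, a small GTPase, held none in any list.

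The BBSome genes ranged from no summit to the longest series of sites among the IFT and BBS members. Bbs9, which spans 412.6 kb, held 3, 3, 3 and 5 Atoh1 summits, 7, 8, 3 and 7 Pou4f3 summits and 1 Gfi1 summit, 40 in all against a mean of 29.7 for genes of its length. Bbs2 held 0, 1, 2 and 3 Atoh1 summits and 2, 1, 2 and 1 Pou4f3 summits, 12 in all against a mean of 6.52. Its highest Atoh1 site, shown above, stood at 4.81-fold in iG+A, 4.52-fold in iP+A and 9.35-fold in iGPA, with no summit in iAtoh1. With windows taken around the Atoh1 summit, it is the 1 of the 70 Atoh1 sites outside the Dnahc8 locus that holds an X-box half-site. Bbs1 held 0, 2, 0 and 1 Atoh1 summits, 1, 1, 0 and 1 Pou4f3 summits and 1 Gfi1 summit. Bbs4 held single summits in 3 lists, Bbs7 held a Gfi1 summit and nothing else, and Bbs5 held none. The chaperonin-like Bbs10 held 1 Atoh1 summit, in iGPA, and 2 and 1 Pou4f3 summits in iG+P and iGPA. Of its 4 sites, 3 lie 209, 233 and 615 bases from its start and the other 5574 bases away, and all 4 lie within 10 kb of Osbpl8. Bbs12 held 1 summit in each of the iGPA Atoh1, iPou4f3 Pou4f3 and Gfi1 lists, at a start beside that of Cetn4, a centrin gene.

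**Figure D2:**
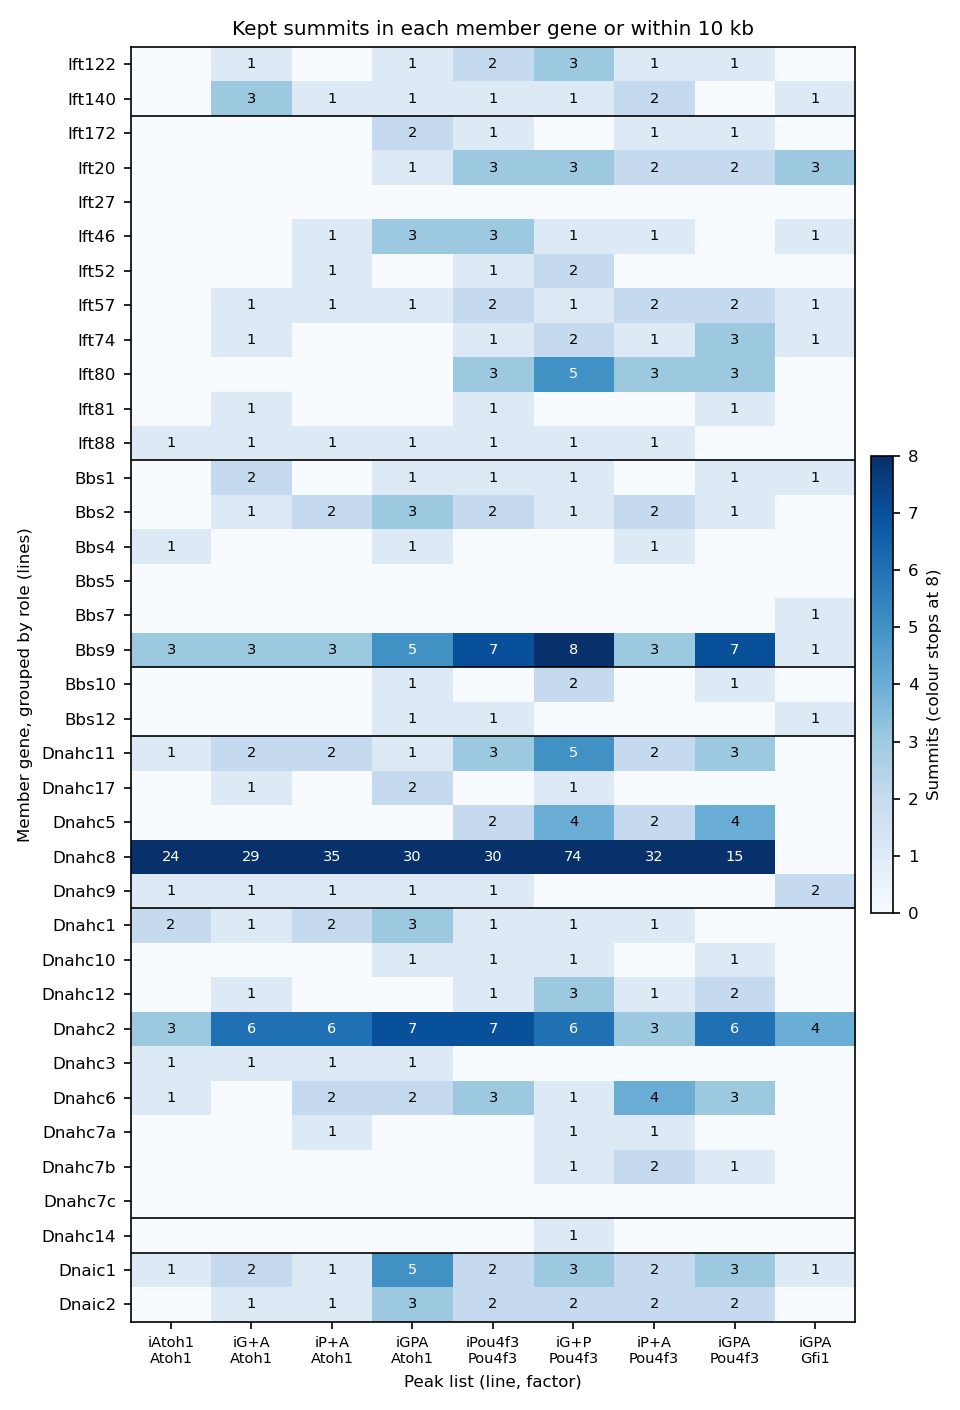
Kept summits in each member gene or within 10 kb (rows, grouped by role from IFT-A at the top to the intermediate chains at the bottom) in each of the 9 lists (columns). Numbers are summits, blank cells are 0, and the colour stops at 8. Dnahc8 holds 15 to 74 summits in the Atoh1 and Pou4f3 lists and no other member holds more than 8 in any list, while Bbs5, Ift27 and Dnahc7c hold none.

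Among the axonemal dyneins most summits lay in a few genes. The inner arm heavy chain gene Dnahc2 (chr11:69234311-69362612, minus strand) held summits in all 9 lists, with 3, 6, 6 and 7 for Atoh1, 7, 6, 3 and 6 for Pou4f3 and 4 for Gfi1. Its 48 summits compare with a mean of 14.1 for genes of its length, of which 5 of 200 held as many. Of its 18 sites, 9 lie within 10 kb of another gene as well, 8 of them near the histone demethylase gene Kdm6b beyond the end of Dnahc2. Dnahc1 held 2, 1, 2 and 3 Atoh1 summits and 1, 1, 1 and 0 Pou4f3 summits. Its widest shared site, in 7 lists, lies 50 bases from the start of its neighbour Phf7 and 72728 bases from its own. Dnahc6 held 1, 0, 2 and 2 Atoh1 summits and 3, 1, 4 and 3 Pou4f3 summits, while Dnahc3 held no Pou4f3 summit and 1 Atoh1 site found in all 4 lines, 75 bases from the start of its neighbour Tmem159. Dnahc12 held 1 Atoh1 summit, in iG+A, and 1, 3, 1 and 2 Pou4f3 summits, and Dnahc10 held 1 Atoh1 summit, in iGPA, and 1, 1, 0 and 1 Pou4f3 summits. Dnahc7a and Dnahc7b were each in 3 lists and Dnahc7c in none, and counts among these near copies are uncertain, since reads of low mapping quality had been removed. Dnahc14 held a single summit, for Pou4f3 in iG+P.

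Of the outer arm heavy chains, Dnahc5, the chain most often mutated in primary ciliary dyskinesia, held no Atoh1 summit in any line and 2, 4, 2 and 4 Pou4f3 summits. Its highest site, in an intron 116192 bases from the start, stood at 9.75-fold in iPou4f3, then 8.54-fold in iG+P, 5.77-fold in the iP+A line and 13.8-fold in iGPA. Dnahc11, the left-right dynein, held 1, 2, 2 and 1 Atoh1 summits and 3, 5, 2 and 3 Pou4f3 summits. Dnahc9 held 1 Atoh1 summit in each of the 4 lines, 1 Pou4f3 summit in iPou4f3 and 2 Gfi1 summits, all 7 against a mean of 25.1 for genes of its length. Dnahc17 held 4 summits over 3 lists. The intermediate chains both held more summits than the mean of genes of their length. Dnaic1 held 1, 2, 1 and 5 Atoh1 summits, 2, 3, 2 and 3 Pou4f3 summits and 1 Gfi1 summit, 20 in all against a mean of 9.19 for its length. Dnaic2 held 0, 1, 1 and 3 Atoh1 summits and 2 Pou4f3 summits in each line, 13 in all against a mean of 6.20.

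The highest Atoh1 summit in 3 of the 4 Atoh1 lists, over the whole genome, was the E-box array in Dnahc2. It lies in an intron, 5630 bases from the nearest start of the gene. Its fold was 43.9 in iAtoh1, then 51.8 in iG+A, 45.7 in the iP+A line and 72.1 in iGPA, and in iG+A 1 of the 20504 kept summits was higher. The same site was listed for Pou4f3 in iP+A at 4.76-fold and in iGPA at 5.68-fold, and for Gfi1 at 7.04-fold. It was not listed for Pou4f3 in iPou4f3 or iG+P, the 2 Pou4f3 lines without Atoh1. In the 250 bases around the summit it held 13 or 14 E-boxes, where the median Atoh1 summit held 1, and 10 to 15 other summits of each list held as many. Across all Atoh1 summits the median fold rose with the number of E-boxes, from 3.05 with none to 4.15 with 4 or more in iAtoh1, and from 3.08 to 5.17 in iGPA. These are descriptions over summits of 1 list, and the part that the number of E-boxes, or the repeated sequence, has in the height of the Dnahc2 summit was not tested. Among the member sites, the second by Atoh1 fold in iAtoh1 was the intron site of Dnaic1 shown above, with 1 CAGCTG, at 7.70-fold (interval 5.93 to 9.83), then 6.28-fold with Gfi1, 7.21-fold with Pou4f3 and 9.23-fold with both.

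For Pou4f3 the highest member site in each of the 4 lists was at the start of Dnaic1. The highest summit lies 197 bases from the Dnaic1 start and 40 bases from that of the divergent gene 2310028H24Rik. Its fold was 36.4 in iPou4f3, then 18.2 in iG+P (interval 15.5 to 21.2), 13.7 in the iP+A line (11.4 to 16.4) and 29.9 in iGPA (26.1 to 34.1). Among the folds of all kept summits it stood at percentile 99.7 in iGPA and higher in the other 3 lists. A low Atoh1 summit, at 2.95-fold, was listed there in iGPA only. The Dnaic2 site, 4648 bases from the nearest start of the gene, was listed for Pou4f3 in all 4 lines, from 3.62-fold in iP+A to 7.72-fold in iGPA. It was listed for Atoh1 in iP+A and iGPA, the 2 Atoh1 lines that also carried Pou4f3. The Dnahc5, Dnaic1 and Dnaic2 sites share the run around ATGAATAAT shown above. Over all 47440 Pou4f3 sites, 6.54% held this spelling, against 0.647% of the 44363 Atoh1 sites, and of the 99 Pou4f3 member sites outside Dnahc8 it stood in 5 (5.05%, interval 1.66 to 11.4%), which include the 3 sites from which the spelling was taken. With Dnahc8 it stood in 5 of 205 (2.44%, interval 0.797 to 5.60%), an interval below the share of all Pou4f3 sites.

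**Figure D3:**
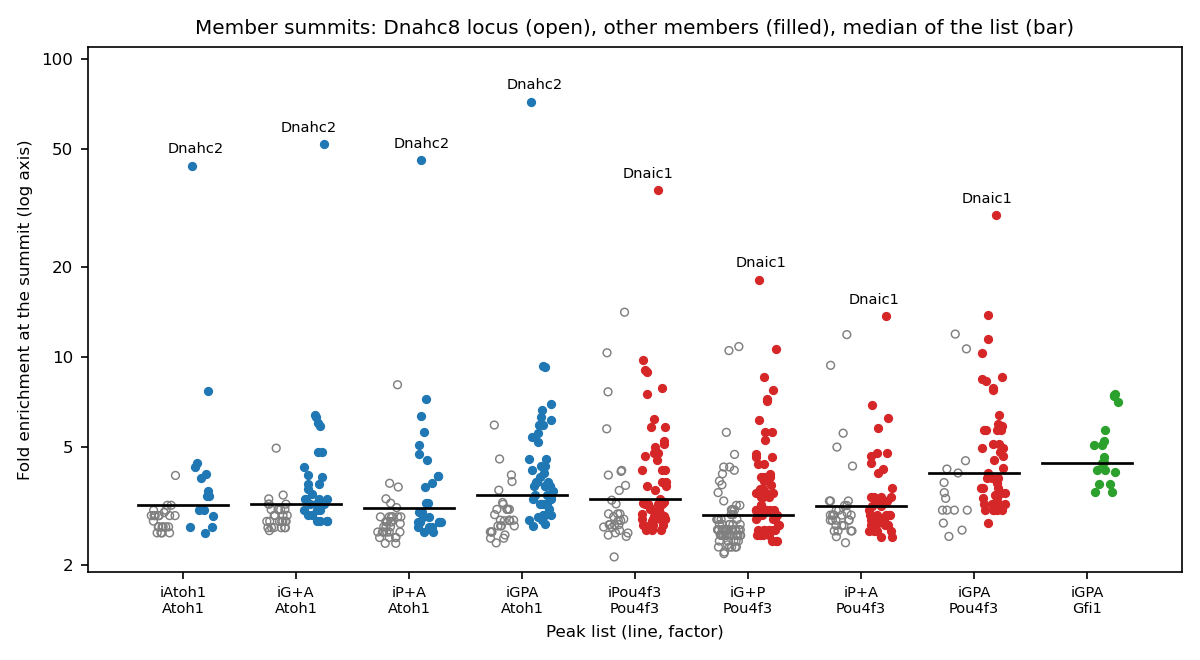
Fold enrichment at the summit (y axis, log scale) of every kept summit in the member loci, in each list (x axis). Open grey points are the Dnahc8 locus, filled points the other members, and the bar is the median of all kept summits of that list. The labelled Dnahc2 site reaches 43.9 to 72.1 in the Atoh1 lists and the Dnaic1 site 13.7 to 36.4 in the Pou4f3 lists, while most Dnahc8 points lie under the bar.

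The outer arm heavy chain gene Dnahc8 (chr17:30761299-31012209, plus strand) stood apart from all other members. It held 24, 29, 35 and 30 Atoh1 summits and 30, 74, 32 and 15 Pou4f3 summits, and no Gfi1 summit. That is 99.3 summits per 100 kb over all lists, where the median protein-coding gene held 7.74, and 215 genes held more. It supplied 170 of the 310 sites in the member loci, so the values that follow are given with and without it. With Dnahc8, the member loci held 39, 59, 62 and 78 Atoh1 summits, against 38.45, 52.6, 47.7 and 69.8 expected from genes of like length, and 83, 135, 72 and 63 Pou4f3 summits, against 56.6, 81.1, 41.8 and 46.8. Without Dnahc8, they held 15, 30, 27 and 48 Atoh1 summits, against 36.3, 49.8, 45.2 and 66.5 expected. The Pou4f3 summits were then 53, 61, 40 and 48, against 53.7, 76.6, 39.4 and 44.2. The Atoh1 counts were thus above the expected number in each line with Dnahc8 and below it without, and the expected numbers are means that still hold other genes with very many summits.

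The summits of Dnahc8 belong to a dense block that is wider than the gene. In bins of 50 kb, the count in the 4 Atoh1 lists went from 0 or 1 to between 6 and 8 at 200 kb before its start, and from between 7 and 13 to 0 or 1 at 300 kb after it, which marks chr17:30561299-31061298. In iG+P the counts rose and fell near the same places, while the other 3 Pou4f3 lists showed less clear edges. The block runs from within Btbd9 through Glo1 and all of Dnahc8 into Glp1r. The density of summits in it was 10.98 to 18.3 times that of the rest of the chromosome in the Atoh1 lists and 6.90 to 18.1 times in the Pou4f3 lists. The 8 lists together held 557 summits there, where the median window of this length over chromosomes 1 to 19 and X held 22, and 160 of 52607 such windows, or 0.304%, held as many. Summits in the block were mostly low. Their median fold was under that of the list in all 8 Atoh1 and Pou4f3 lists, for example 2.87 against 3.18 in iAtoh1 and 2.63 against 2.96 in iG+P. Between 8.33% and 33.3% of them reached a −log10 p of 10 or more, under the share of the list in each of the 8.

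**Figure D4:**
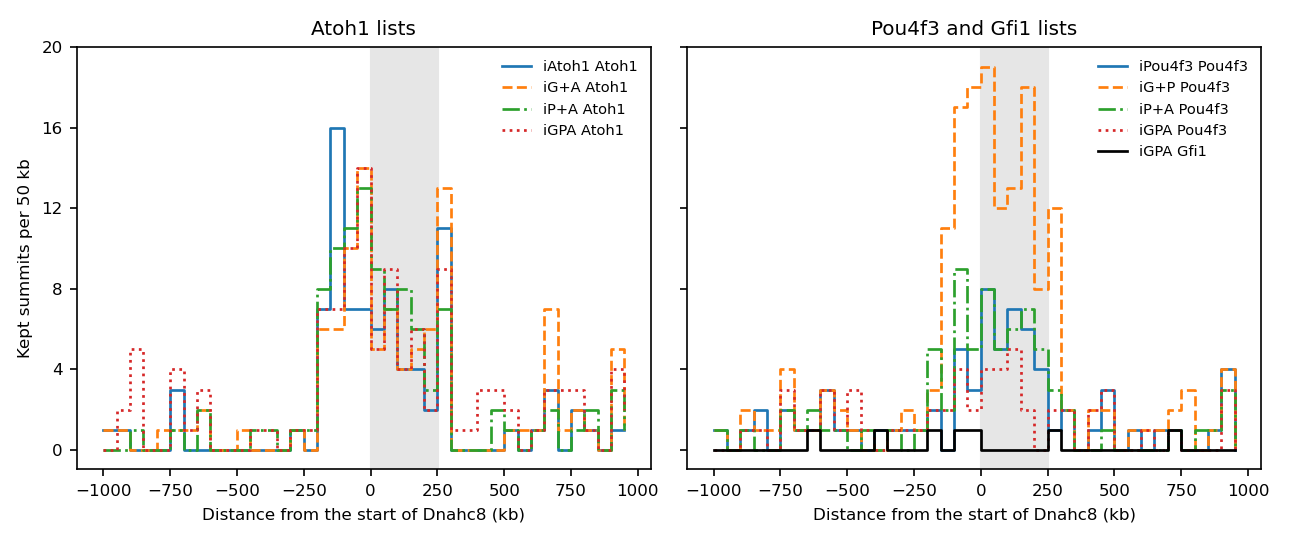
Kept summits per 50 kb (y axis) against the distance from the start of Dnahc8 (kb, x axis), for the 4 Atoh1 lists (left) and the 4 Pou4f3 lists and the Gfi1 list (right), with the body of Dnahc8 in grey. Counts are high from 200 kb before the start to 300 kb after it in the Atoh1 lists and over most of this span for Pou4f3 in iG+P, lower and without clear edges for Pou4f3 in iPou4f3 and iGPA, and the Gfi1 list held 4 summits over the span.

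The Dnahc8 sites also differed from other sites in what lies under them. None of its 97 Atoh1 sites (interval 0 to 3.73%) and none of its 106 Pou4f3 sites (0 to 3.42%) lay within 1 kb of a protein-coding start. An E-box stood at 41.2% of its Atoh1 sites (31.3 to 51.7%), against 70.0% (57.9 to 80.4%) of the 70 Atoh1 sites of the other members and 62.1% of all Atoh1 sites. The Pou4f spelling ATAATTAAT, with at most 1 mismatch, stood at 18.9% of its Pou4f3 sites (11.9 to 27.6%), against 37.4% (27.8 to 47.7%) at the other members and 37.99% of all. The highest of its sites were those of Pou4f3. The site shown above reached 14.1-fold in iPou4f3 (interval 11.7 to 16.9), then 10.5 in iG+P and 11.9 in both iP+A and iGPA. What raises the number of summits in the block was not tested. The local background at each summit, in fragments, was recovered from fold and p. In the block, 93.1%, 86.8%, 89.0% and 74.0% of Atoh1 summits had the background most frequent in their list. Over these lists the shares were 86.6%, 87.75%, 87.3% and 83.4%. For Pou4f3 the block gave 34.15%, 89.3%, 85.45% and 40.7%, against 75.2%, 92.96%, 90.8% and 89.8%. The lists give no input read depth, and whether these lines carry the stretch in the usual number of copies was not tested. The counts and folds of Dnahc8 hold with that limit. Whether the 2 clones merged in each list differ there cannot be told from merged lists.

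Outside Dnahc8 the number of Atoh1 sites in the member loci was lowest with Atoh1 alone. There were 14 sites in iAtoh1, and then 30 in iG+A, 26 in the iP+A line and 48 in iGPA, and the 4 lists stood in the same order by their total number of kept summits. Of the 14 sites of iAtoh1, 11 were also in iGPA (78.6%, interval 49.2 to 95.3%), which is 22.9% of the iGPA sites. Over all sites of these lists, 54.3% of those of iAtoh1 were in iGPA, a value inside that interval. With Dnahc8 the share at the members was 13 of 37 (35.1%, interval 20.2 to 52.5%), below it. Of the 70 Atoh1 sites, 45 were in 1 of the 4 lists and 9 were in all 4. The Pou4f3 sites changed less in number, with 52 in iPou4f3, and then 60 in iG+P, 39 in the iP+A line and 47 in iGPA. Of the 52 sites of iPou4f3, 29 were in iGPA (55.8%, interval 41.3 to 69.5%), against 49.8% over all sites and 36 of 82 (43.9%, interval 33.0 to 55.3%) with Dnahc8. Of the 99 Pou4f3 sites, 46 were in 1 list and 16 in all 4. Neither the Atoh1 nor the Pou4f3 spread over the 4 lists was counted over all sites.

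Of the 140 sites outside Dnahc8, 58 were in 1 list, 4 were in 7 lists and none was in 8 or 9. This spread was not counted over all sites of the lists, so it is not read as a trait of the members. The 4 in 7 lists were the Dnahc2 array, the Dnahc11 intron site, the Phf7 start beside Dnahc1 and the Il17d site beside Ift88. The Dnahc11 site, 209443 bases from its start, held 2 Pou4f matches and 1 E-box, and stood at 4.64, 6.13, 4.19 and 7.86-fold for Pou4f3 and at 3.47, 2.69 and 4.31-fold for Atoh1 in iG+A, iP+A and iGPA. By position, 91 of the 140 sites lay in introns, 29 between genes, 15 in exons outside coding sequence and 5 in coding exons. For 97 of them the nearest protein-coding start was that of a member, and 56 had another protein-coding gene within 10 kb.

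All 18 Gfi1 sites lay outside the Dnahc8 locus. Of these, 10 lay within 1 kb of a protein-coding start (55.6%, interval 30.8 to 78.5%), against 32.8% of the 2991 sites of the Gfi1 list, a value inside that interval. Member sites lie by definition in a gene or within 10 kb of it, while the sites of the whole list need not. The highest Gfi1 sites were at a start of Ift46 inside the gene, at 7.50-fold (interval 5.37 to 10.2) and 11 bases from it, and at the start of Ift140, at 7.46-fold (5.51 to 9.90) and 19 bases from it. Sites within 1 kb of the member's own start were also listed at Ift20, Ift74, Bbs7, Bbs12 and Dnahc9, with folds of 5.67, 4.18, 5.06, 3.52 and 4.18. The Ift20 summit lies closer to the start of Tnfaip1, at 30 bases, than to that of Ift20, at 216, and the Bbs12 start lies beside that of Cetn4. The Gfi1 spelling stood at 3 of the 18 sites (16.7%, interval 3.58 to 41.4%), against 6.99% of all Gfi1 sites. These were the Ift140 and Dnahc9 sites shown above and a site near the start of Tmem97, beside Ift20. An E-box stood at 7 of the 18, or 38.9%, against 39.1% of all Gfi1 sites. Beside the Gfi1 summit, 8 of the 18 sites were listed for Atoh1 and 5 for Pou4f3 in iGPA, lists that share their input with the Gfi1 list. These overlaps were not counted over all Gfi1 sites, so they are not read as a trait of the members. The study reports overlap with Atoh1 among its Gfi1 peaks in general.

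The Gfi1 summits at the members' own starts are among those already counted above, and their share was higher than that of all protein-coding genes. A Gfi1 summit lay within 1 kb of a start of 7 of the 37 members (18.9%, interval 7.96 to 35.2%), against 4.76% of all protein-coding genes. Atoh1 had such a summit at none of the members in iAtoh1 and in iP+A (interval 0 to 9.49% in both), where 12.2% and 18.3% of all genes had one, so both of these intervals lay below the share of all genes. In iG+A it was at 4 members (10.8%) and in iGPA at 10 (27.0%, interval 13.8 to 44.1%), against 20.7% and 25.96% of all genes. Pou4f3 summits lay at the starts of 8, 7, 5 and 3 members, or 21.6%, 18.9%, 13.5% and 8.11%, against 25.9%, 20.5%, 14.1% and 9.89% of all genes. The Atoh1 summits at starts in iGPA ranged from 2.71-fold at Ift46 to 4.55-fold at Bbs2, where the median of the list was 3.45-fold. The Gfi1 list was the only one of the 9 whose interval at the members lay above the share of all genes. Genes of like length were not used for the starts.

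**Figure D5:**
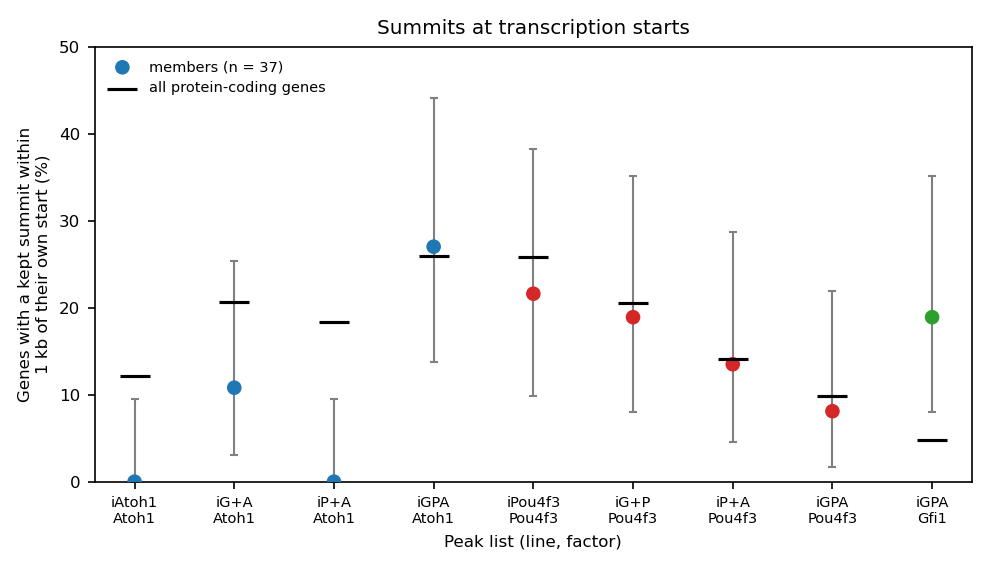
Share of genes with a kept summit within 1 kb of any of their own transcription starts (%, y axis) in each list (x axis), for the 37 members (points, exact 95% intervals) and all protein-coding genes (bars). The Gfi1 point, at 18.9%, lies above its bar at 4.76%, and the iAtoh1 and iP+A Atoh1 points lie at 0 under bars at 12.2% and 18.3%.

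The promoter sequences of the members, 250 bases before to 50 after each start, were searched for the same patterns. For each pattern the interval at the members took in the share of all promoters. An E-box stood in 6 of 37 (16.2%, interval 6.19 to 32.0%), against 27.8% of all promoters. The X-box half-site stood in 2 (5.41%, interval 0.662 to 18.2%), those of Ift81 and Dnahc5, against 1.60% of all. The Pou4f spelling stood in the promoter of Dnahc12 and the Gfi1 spelling in that of Ift140, against 5.76% and 0.756% of all.

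Other genes of the ciliary pathway were counted from a list of 62 regulators, motors and further subunits, of which 55 matched the annotation by symbol. In the Atoh1 lists 21, 30, 24 and 36 of them held a summit, against 18.9, 27.3, 24.8 and 32.3 expected from length. In the Pou4f3 lists 29, 33, 24 and 25 did, against 31.7, 32.4, 22.9 and 24.6, and in the Gfi1 list 8 did, against 7.48. The difference between these genes and the members was not tested. Among the IFT and BBS genes under other symbols, Wdr35, Ttc21b and Hspb11 each held 1 Gfi1 summit. Wdr19, Traf3ip1, Cluap1, Ttc26, Ttc30a1, Ttc30a2, Ttc30b, Rabl5, Ttc8, Mkks, Arl6 and Trim32 held none. Foxj1, the regulator of motile ciliogenesis, held no Atoh1 or Gfi1 summit and 1, 3, 1 and 1 Pou4f3 summits. Rfx3, which binds the X-box of many cilium genes, held 0, 2, 0 and 1 Atoh1 summits, 3, 4, 3 and 2 Pou4f3 summits and 1 Gfi1 summit, and Rfx2 held 1, 2, 1 and 3 Atoh1 summits and 1 Pou4f3 summit, in iPou4f3. Rfx6 held none in any list.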

How the data were processed

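Per the submitters' processing notes and the study's methods, the authors trimmed reads with Trimmomatic, aligned them to mm9 with Bowtie2, removed duplicates with Picard, reads of low mapping quality with SAMtools and blacklisted regions with bedtools, and called peaks with MACS2 on merged replicates against merged inputs. The deposited peak files give the authors' fold enrichment (a ratio over local background) at each summit and −log10 p, and −log10 q, which was not used. The deposited summit lists are a subset of the called peaks, and the filter that made them is not given in the sources used here. Each deposited summit also carries a score that the authors gave it, whose definition is not given in the sources used here, and it was not used. Read depths are unknown here.

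Summits were counted per gene (gencode vM1 annotation of NCBIM37) with Python 3.11.15, pandas 2.3.3 and pysam 0.24.0, and windows of 300 bp around summits were joined into sites on 1 shared base. Patterns were sought on both strands in 250 bp around the summit. Intervals on single folds are exact Poisson intervals on the fragments at the summit, recovered from fold and p within a tolerance of 0.001. Counting and joining were tested on simulated data. Members and gene lists were chosen with earlier results of these data known. Named members were those in at least 4 lists, the 3 with most sites per role and those without a summit. Named sites were the 2 highest per list, those within 1 kb of a member's start and those in at least 6 lists, and the text gives a selection of these. No test was run, because each list is 1 merged value. Alternatives were the peak set, the distance, the threshold, the list length, the way sites were joined, the start set and the sequence window.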

Additional observations from a re-analysis of the deposited data

How the results depend on the processing

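No paired analysis was possible because the authors merged the replicates before calling peaks, and for the same reason no replicate could be left out. Of 122 alternative values, 95 stayed within 1.5 times the main count or within the interval of the main share, and 27 moved. The 95 include values that could not move, namely the equal list length for iAtoh1 and Gfi1, and for Gfi1 the Dnahc8 locus left out. At a −log10 p of 10 or more, members with a summit fell to 6 (iAtoh1), 9 (iG+A), 11 (iP+A) and 14 (iGPA) for Atoh1, to 14 (iPou4f3), 15 (iG+P) and 11 (iP+A) for Pou4f3 and to 7 for Gfi1, where 3.14 were expected from length, and sites fell to 30 for Atoh1, 50 for Pou4f3 and 9 for Gfi1. With the gene body only, members with a summit were 7 in iAtoh1, 12 in iG+A and 17 in iPou4f3. With 50 kb they were 23 in iAtoh1 and 29 in iP+A for Atoh1. With summits assigned to the nearest start there were 7 in iAtoh1, where 15.3 were expected, and the Atoh1 intervals of iAtoh1, iG+A and iP+A then lay below the expected share. The Gfi1 interval at all members took in the expected share with the nearest start and at the stricter p, and at the IFT and BBS members it lay above it under each of the 7 alternatives. Of these, the equal list length left the Gfi1 list whole, since that list is shorter than the length used. Within 5 kb of a start lay 23.9% of Atoh1 and 22.9% of Pou4f3 sites. In 100 bp around the summit 36.5% of Atoh1 sites held an E-box and 20.5% of Pou4f3 sites the Pou4f spelling. Leaving out the Dnahc8 locus, chosen after seeing the data, gave 70 Atoh1 and 99 Pou4f3 sites, start shares of 34.3% and 30.3% (from 14.4% and 14.6%), and pattern shares of 70.0% and 37.4% (from 53.3% and 27.8%). The 9 IFT and BBS members with a Gfi1 summit became 6 to 11 under the alternatives, against 1.41 to 5.09 expected from length.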
